A study of Homo sapiens with 12 samples.

Results

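Of 60671 genes counted in human K562 leukemia cells and 2 lines derived from them, 18 were nearly without reads in the etoposide-selected clone K/VP.5. The same 18 were expressed in the parental line and in a gene-edited clone. They were chosen by a rule on CPM, the count of a gene scaled to the same total in every sample. A protein-coding or lncRNA gene had to reach 2 CPM in all 4 K562 and all 4 K562/SSedit-2 samples and to stay under 0.2 CPM in all 4 K/VP.5 samples. The table holds 36665 genes of these types. The rule left out replication-dependent histone genes, PGR and OR51B5 by name, of which 44 reached 2 CPM in the 8 samples of K562 and K562/SSedit-2, and PGR, H2BC9 and H3C7 were within both limits. Without the genes left out by name, 10407 reached 2 CPM in these 8 samples. Because the rule used the K/VP.5 values, the loss of expression in K/VP.5 is described here without a test.

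K562 is a BCR-ABL1-positive erythroleukemia line. K/VP.5 is a clone that was selected from K562 by intermittent and later continuous exposure to etoposide, a poison of DNA topoisomerase IIα. K562/SSedit-2 is a single clone of K562 that was edited with CRISPR/Cas9 and a repair template. The edit changed the 5′ splice site at the exon 19/intron 19 boundary of TOP2A on 2 of 3 alleles. This clone carries the edit and no drug selection. The authors report that K562/SSedit-2 is also resistant to etoposide, but less so than K/VP.5. All 3 lines were grown in DMEM with fetal bovine serum and harvested in mid-log phase, and RNA-seq was done on 4 samples of each. No source used here says that the 4 samples were separate cultures, so p-values may measure technical spread only, and with 1 clone a derived line, resistance, clone and time in culture cannot be told apart.

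A gene can be shut down for many cell generations when its promoter is methylated at CpG dinucleotides, or when Polycomb complexes (H3K27 methylation) or H3K9 methyltransferases with HP1 proteins keep its chromatin closed. A gene can also be lost from the genome, or lack the transcription factor it needs. Such silencing is inherited by daughter cells, and a clone passes on the pattern of its founder cell. Gene counts measure RNA alone, so none of these states was measured. In bulk RNA, fewer cells that express a gene and less RNA per cell cannot be told apart.

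Total counts were 28981722 to 43648830 per sample, so that 3 reads in a sample equal 0.0687 to 0.103 CPM and the limit of 0.2 CPM equals 5.80 to 8.73 reads. TOP2A, the edited gene, had a mean of 399 ± 46.6 CPM (SD, n = 4) in K562, 280 ± 5.68 CPM in K/VP.5 and 189 ± 15.0 CPM in the edited clone. Of 18 markers of the K562 line, 16 or 17 were at 2 CPM or above in every sample of a line. Of 16 markers of other cell types, 3 or 4 were, with summed levels of 194 to 243 CPM in K562, 195 to 201 CPM in K/VP.5 and 211 to 243 CPM in K562/SSedit-2. Most of this sum was EPCAM. The keratin genes KRT5 and KRT14, the B cell gene MS4A1 and the albumin gene ALB were at 0.075 CPM or less in all 12 samples. COL1A1 and COL1A2 were at 18.1 to 33.2 CPM in K/VP.5 and at 1.17 to 6.69 CPM in the other lines, and CD3D was at 6.66 to 11.03 CPM in K/VP.5 and 23.8 to 51.9 CPM in the others. The fibroblast gene DCN was at 0.069 to 0.25 CPM in K/VP.5 and 0.104 to 0.848 CPM in K562. The T cell gene CD3E was at 0.2 to 0.345 CPM in K/VP.5 and 0.026 to 0.108 CPM in K562. Their part in the results below was not tested.

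The 18 genes differed in what they encode. Of these, 15 were protein-coding and 3 were lncRNA genes, a share of 16.7% lncRNA genes against 5.49% of the 10407 expressed genes. When the lines were exchanged under the same limits, no gene was silent only in K562/SSedit-2 or only in K562, none was silent in both derived lines, and 65 genes were expressed only in K/VP.5. Between 0.2 and 0.5 CPM in their highest K/VP.5 sample lay 22 of the 10407 genes, 26 lay between 0.5 and 1 CPM, and 10244 (98.4%) reached 2 CPM. The genes just inside the K/VP.5 limit were THSD1 and PRDM9, both with 0.176 CPM in their highest K/VP.5 sample, MEF2C and KCNMA1 with 0.173 CPM, and LCP2 with 0.147 CPM. Just outside were PCDH9 (0.235 CPM), ZNF671 and LINC01619 (both 0.247 CPM), CDH18 (0.250 CPM) and LINC00923 (0.294 CPM). At the expression floor, THSD1 was nearest, with 2.70 CPM in its lowest sample, followed by ZPLD1 (3.23 CPM), OR52D1 and OR51I2 (both 3.67 CPM) and IGSF11 (3.74 CPM), and the nearest outside were NFILZ, just under 2 CPM, PARD3B (1.84 CPM) and OR51M1 (1.82 CPM).

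**Figure D1:**
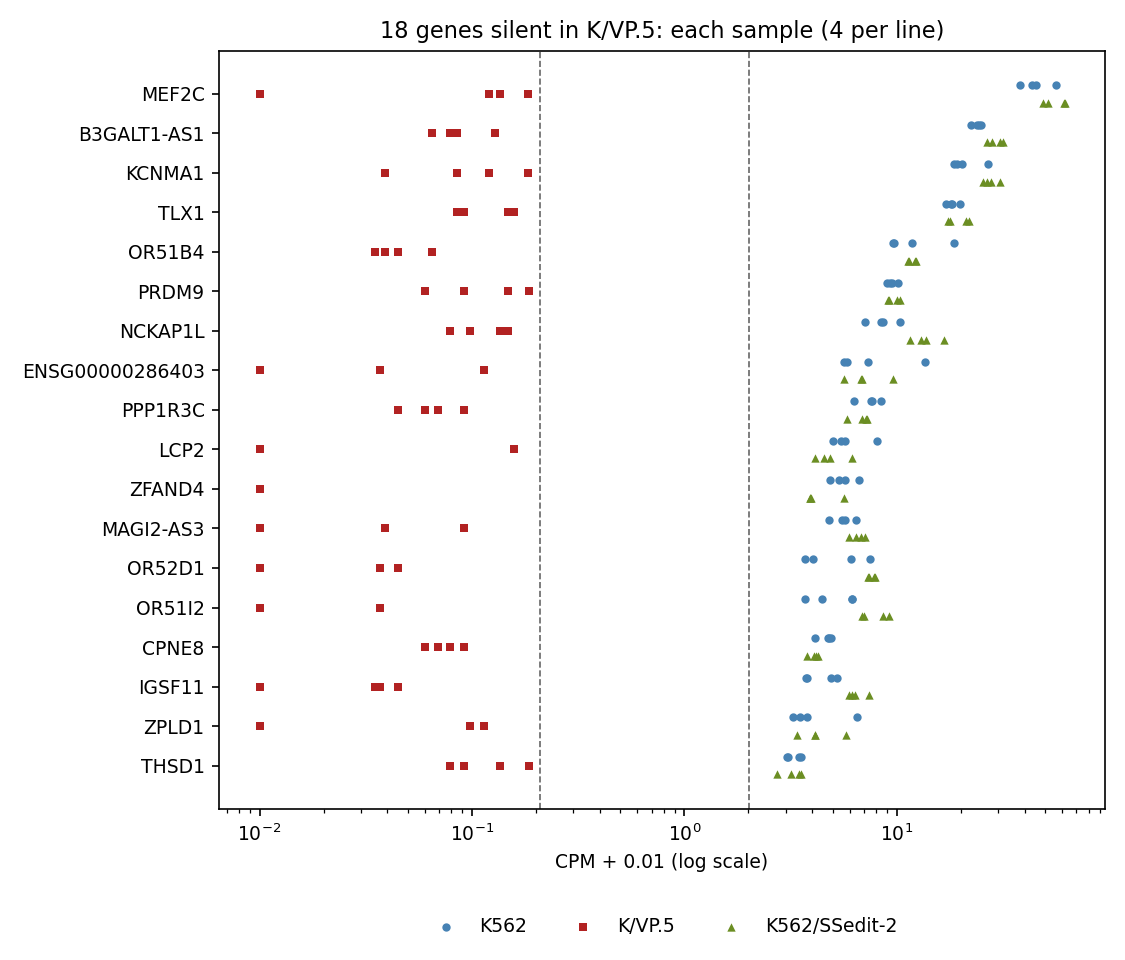
Expression of the 18 genes in each of the 12 samples, as CPM + 0.01 on a log axis, with 4 points per line and gene. Dashed lines mark the limits of 0.2 and 2 CPM. Every K/VP.5 point lies left of the first line and every K562 and K562/SSedit-2 point lies right of the second, which the rule requires, and genes are ordered by their mean in K562, from MEF2C (45.5 CPM) to THSD1 (3.27 CPM).

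MEF2C (ENSG00000081189, chromosome 5, 88717117 to 88904257, minus strand in GRCh38) had the highest count of the 18. It encodes a MADS-box transcription factor of muscle, neural and blood cell development. Counts were 2144, 1659, 1592 and 1806 in K562 replicates 1 to 4, 2235, 1939, 1578 and 2094 in K562/SSedit-2, and 5, 4, 0 and 5 in K/VP.5. Summed over 4 samples, K562 was 451-fold above K/VP.5 (exact 95% interval 269 to 825, which covers counting error only, as do the intervals below). The 5 or fewer reads per K/VP.5 sample were out of at least 28981722. MEF2C-AS1, a lncRNA on the opposite strand that shares exonic bases with MEF2C, had counts of 33, 42, 26 and 38 in K562 and 0, 0, 0 and 1 in K/VP.5. Whether the counting used strand is not stated, so the reads of both genes cannot be told apart where they overlap.

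TLX1 and PRDM9 encode the other 2 sequence-specific DNA-binding proteins. TLX1 (ENSG00000107807, chromosome 10, 101131300 to 101137789, plus strand) is a homeobox factor of spleen development that is activated by translocation in T-cell leukemia. It was at 19.8, 17.0, 18.1 and 17.9 CPM in K562 and 21.9, 21.1, 17.4 and 17.8 CPM in K562/SSedit-2, and it had 3, 3, 5 and 4 reads in K/VP.5, a ratio of 169 (102 to 302) for K562 over K/VP.5. PRDM9 (ENSG00000164256, chromosome 5, 23443586 to 23528093, plus strand) is the H3K4 and H3K36 methyltransferase that places meiotic recombination sites and is normally restricted to germ cells. Its counts were 387, 390, 350 and 371 in K562, 333, 347, 325 and 350 in K562/SSedit-2 and 2, 3, 6 and 4 in K/VP.5, a ratio of 87.5 (52.9 to 157). Both genes varied little between the samples of K562, with a coefficient of variation of 6.44% for TLX1 and 5.08% for PRDM9.

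LCP2 and NCKAP1L are genes of blood cells. LCP2 (ENSG00000043462, chromosome 5, 170246233 to 170297815, minus strand) encodes SLP-76, an adaptor that links antigen and collagen receptors to phospholipase C. It was counted 308, 249, 202 and 200 times in K562, 225, 170, 133 and 164 times in K562/SSedit-2 and 0, 0, 5 and 0 times in K/VP.5. All 5 K/VP.5 reads were in replicate 3. NCKAP1L (ENSG00000123338, chromosome 12, 54497752 to 54548243, plus strand) encodes HEM1, the hematopoietic subunit of the WAVE complex that drives actin branching. Its counts were 399, 375, 309 and 282 in K562, 607, 489, 444 and 392 in K562/SSedit-2 and 5, 5, 3 and 2 in K/VP.5. The ratio of K562 to K/VP.5 was 168 (71.8 to 519) for LCP2 and 79.8 (48.2 to 143) for NCKAP1L.

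Genes of the cell surface and membrane made up the next group. KCNMA1 (chromosome 10, 76869601 to 77638369, minus strand) encodes the pore of the large-conductance calcium-activated potassium channel. Its counts were 1030, 814, 706 and 813 in K562, 1120, 957, 897 and 904 in K562/SSedit-2 and 3, 4, 1 and 5 in K/VP.5. IGSF11 (chromosome 3, 118900557 to 119146068, minus strand), an immunoglobulin-like adhesion molecule, had 201, 164, 138 and 196 reads in K562, 232, 231, 192 and 252 in K562/SSedit-2 and 1, 1, 0 and 1 in K/VP.5. Its ratio of 204 for K562 over K/VP.5 rests on 3 K/VP.5 reads, with an interval of 69.6 to 993. For both genes the K/VP.5 samples held 5 reads or fewer, and no sample of the other lines held fewer than 138.

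ZPLD1, THSD1 and CPNE8 complete the membrane group. ZPLD1 (chromosome 3, 102099244 to 102479841, plus strand), a zona pellucida domain protein, was at 4.24 ± 1.51 CPM (SD, n = 4) in K562, at 4.34 ± 1.02 CPM in the edited clone and at 0.0479 ± 0.0557 CPM in K/VP.5. THSD1 (chromosome 13, 52377167 to 52416373, minus strand), a thrombospondin type 1 repeat protein of endothelial focal adhesions, was at 3.27 ± 0.269, 3.21 ± 0.375 and 0.113 ± 0.0484 CPM in the same order. CPNE8 (chromosome 12, 38646822 to 38907430, minus strand), a calcium-dependent phospholipid-binding copine, was at 4.63 ± 0.342, 4.05 ± 0.222 and 0.0651 ± 0.0140 CPM. THSD1 had the lowest ratio of K562 to K/VP.5 among the 18 genes, 28.5 (17.4 to 50.2), and the most K/VP.5 reads (5, 3, 6 and 2). It shares 357 exonic bases, 9.64% of its exon length, with VPS36 on the same strand, which had 1478 to 2160 reads per K/VP.5 sample, so reads of the 2 genes may not have been separated.

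PPP1R3C and ZFAND4 encode intracellular proteins. PPP1R3C (chromosome 10, 91628442 to 91633071, minus strand) targets protein phosphatase 1 to glycogen. Its counts were 240, 369, 278 and 305 in K562, 212, 270, 221 and 246 in K562/SSedit-2 and 2, 3, 2 and 1 in K/VP.5. ZFAND4 (chromosome 10, 45615500 to 45672780, minus strand), a ubiquitin-like and AN1-type zinc finger protein, was the only one of the 18 with no read in any K/VP.5 sample. Its counts were 255, 248, 178 and 214 in K562 and 205, 147, 126 and 134 in K562/SSedit-2. Taken against 3 reads summed over the 4 K/VP.5 samples, ZFAND4 was at least 262-fold higher in K562 and at least 202-fold higher in K562/SSedit-2.

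Of the 3 lncRNA genes, B3GALT1-AS1 (chromosome 2, 167814757 to 167941180, minus strand) had 936, 972, 921 and 952 reads in K562, 1121, 1003, 907 and 1076 in K562/SSedit-2 and 3, 2, 4 and 2 in K/VP.5. B3GALT1, the galactosyltransferase gene on the opposite strand, had 27, 43, 45 and 66 reads in K562 and 0, 1, 1 and 0 in K/VP.5. It shares 241 exonic bases with B3GALT1-AS1, where the reads of both genes cannot be told apart. MAGI2-AS3 (chromosome 7, 79452877 to 79471208, plus strand) had 246, 240, 177 and 228 reads in K562, 247, 265, 193 and 218 in K562/SSedit-2 and 0, 3, 1 and 0 in K/VP.5. MAGI2, on the opposite strand with 268 shared exonic bases, was higher in K/VP.5 than in K562 (log2 fold change 1.21, standard error 0.197, adjusted p = 8.81e-05 by edgeR's quasi-likelihood test, adjusted over all tested genes by the Benjamini-Hochberg method as throughout). ENSG00000286403 (chromosome 5, 139503242 to 139511374, plus strand), which has no gene name in GENCODE 44, had 519, 319, 207 and 233 reads in K562, 250, 360, 220 and 192 in K562/SSedit-2 and 0, 1, 0 and 3 in K/VP.5.

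The other 3 genes were olfactory receptors of one cluster on chromosome 11, G protein-coupled receptors that are best known from the nasal epithelium. OR51B4 (5301014 to 5301946, minus strand) had 711, 418, 357 and 472 reads in K562, 413, 428, 393 and 418 in K562/SSedit-2 and 1, 2, 1 and 1 in K/VP.5. OR51I2 (5449323 to 5456518, plus strand) had 141, 193, 227 and 247 reads in K562, 336, 262, 277 and 234 in K562/SSedit-2 and a single read in K/VP.5 replicate 2, a ratio of 708 (127 to 28010) for K562 over K/VP.5. OR52D1 (5488685 to 5489749, plus strand) had 141, 176, 225 and 298 reads in K562, 268, 294, 256 and 250 in K562/SSedit-2 and 0, 1, 0 and 1 in K/VP.5, a ratio of 368 (102 to 3045). K562 replicate 1 was the highest K562 sample for OR51B4, and it was the lowest for OR51I2 and OR52D1.

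Levels of different genes were compared per kb of exon. In K562 the highest were B3GALT1-AS1 (17.5 CPM per kb), OR51B4 (13.3), TLX1 (6.94), OR52D1 (4.99) and MEF2C (3.87), and the lowest was MAGI2-AS3 (0.315). KCNMA1, next in CPM after MEF2C and B3GALT1-AS1, was at 0.538 CPM per kb because its annotated exons add up to 39.4 kb.

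The 3 olfactory receptor genes were the only members of the 18 that lay within 500 kb of one another. Their starts were 39.4, 147 and 187 kb apart, and the next closest pair of the 18, TLX1 and PPP1R3C, was 9498 kb apart. Of 14 olfactory receptor genes and pseudogenes in the 188.7 kb from OR51B4 to OR52D1, 11 are not among the 18. Their means ranged from 0.177 to 76.4 CPM in the parental line and from 0.102 to 73.1 CPM in the edited clone, and did not exceed 0.127 CPM in K/VP.5, where 6 of the 11 had no read in any sample. The stretch is bounded by genes that were chosen for their low K/VP.5 counts, and its genes had enough reads for a test only through the other lines, so these values are given as a description. OR51M1, with a mean of 2.93 CPM in K562 and 0.0399 CPM in K/VP.5, was kept out of the 18 by its lowest K562 or K562/SSedit-2 sample, 1.82 CPM. OR51B5, whose annotated gene spans much of this stretch, had 3678, 2901, 2623 and 2893 reads in K562 and 10, 4, 5 and 0 in K/VP.5.

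On the other side of OR51B4 lie the globin genes, none of which had a lower mean in K/VP.5 than in the parent. The annotated spans of HBG2 and HBE1 reach from there across the stretch, to 5505605 and 5505652. The fetal globin HBG1 was at 131 CPM in K562, 222 CPM in K/VP.5 and 218 CPM in K562/SSedit-2 (log2 fold change for K/VP.5 over K562 0.72, adjusted p = 8.53e-07 by edgeR's quasi-likelihood test), and HBG2 at 222, 242 and 369 CPM (0.09, adjusted p = 0.415). Beyond the globins, OR52A1 was at 0.0524 CPM in K562 and 0.354 CPM in K/VP.5 (log2 fold change 2.71, adjusted p = 0.000725 by the same test), and OR52A5 was at 0.0182 and 0.431 CPM without enough reads to be tested. Of 416 protein-coding olfactory receptor genes in the table, 5 reached 2 CPM in every K562 and K562/SSedit-2 sample, and 4 of the 5 lay in this part of chromosome 11.

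**Figure D2:**
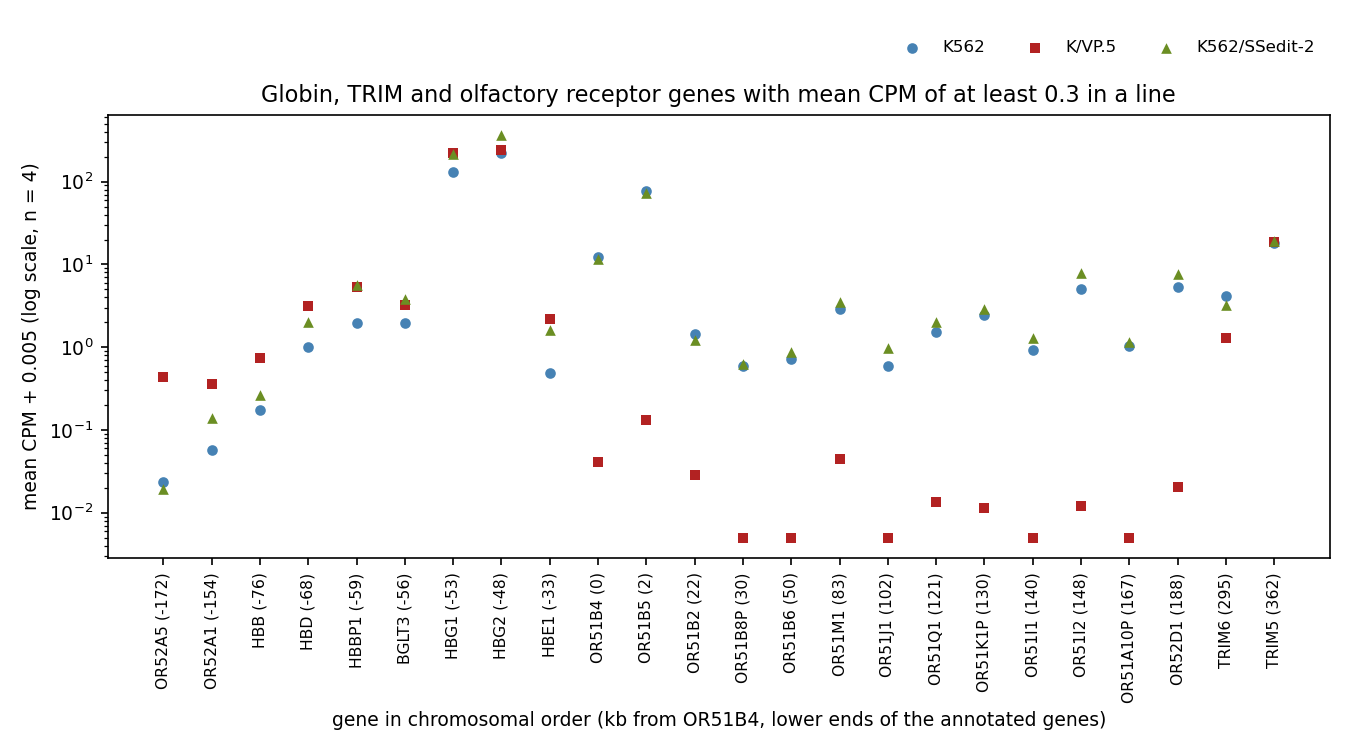
Mean CPM + 0.005 (log axis, n = 4 per line) of globin, TRIM and olfactory receptor genes with at least 0.3 CPM in a line, in chromosomal order, with the distance of each gene's lower end from that of OR51B4 in kb. From OR51B4 to OR52D1 the K/VP.5 squares lie below the points of both other lines for every gene, while for OR52A5, OR52A1 and HBB to HBE1 they lie above the K562 points.

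The other 15 genes were spread over 7 chromosomes besides chromosome 11. Chromosomes 5 and 10 held 4 each (22.2% of the 18 against 4.42% and 3.93% of the expressed genes), chromosomes 3 and 12 held 2 each, and chromosomes 2, 7 and 13 held 1 each. To see whether the loss extended over the surroundings, expressed genes that are not among the 18 were taken whose start lies within 500 kb of one of them. These include genes that the rule left out by name. There were 63 such genes around 12 of the 18, and MEF2C, B3GALT1-AS1, PRDM9, LCP2, MAGI2-AS3 and CPNE8 had none. A gene was called when it differed by at least 2-fold at a false discovery rate of 10% (edgeR's quasi-likelihood test), the cutoffs of all comparisons here. Of the 63, 3 were past the cutoffs and lower in K/VP.5, and 1 was higher. The share of 4.76% that were lower compares with 5.58% of all 10433 expressed genes outside the 18, and the median log2 fold change was -0.25 against -0.06. Without K562 replicate 2, or without K562 replicate 3, 5 of the 63 (7.94%) were lower. Leaving out OR51B5, which the rule named, gave 2 of 62 (3.23%).

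The largest of the 3 falls was that of OR51B5, which starts 17.0 kb from OR52D1. It was at 76.4 CPM in K562, 0.127 CPM in K/VP.5 and 73.1 CPM in K562/SSedit-2. OR51B5 lies in the olfactory receptor stretch and had enough reads for a test only through the other lines. Its fitted log2 fold change of -9.14 for K/VP.5 over K562 is therefore given as a description. STING1, the adaptor of cytosolic DNA sensing, lies 20.3 kb upstream of ENSG00000286403 and was at 94.8 CPM in K562, 3.27 CPM in K/VP.5 and 57.9 CPM in K562/SSedit-2 (log2 fold change -4.89 for K/VP.5 over K562, standard error 0.126, adjusted p = 2.41e-14 by edgeR's quasi-likelihood test). The third was TRIM6, a ubiquitin ligase gene, at 4.13 CPM in K562 and 1.29 CPM in K/VP.5, 107 kb from the start of OR52D1 (-1.71, standard error 0.247, adjusted p = 2.56e-05 by the same test). ALG11, a mannosyltransferase of N-glycan synthesis 404 kb from THSD1, was higher (log2 fold change 1.01, adjusted p = 1.24e-06).

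With all 109 tested protein-coding and lncRNA genes within 500 kb, expressed at the floor or not, 14 were lower in K/VP.5 and 18 were higher. Both shares were above those of all tested genes, 12.8% against 6.66% for lower and 16.5% against 8.98% for higher. Of the 14, 6 were olfactory receptor genes of the stretch described above and 8 were not. Those 6 had enough reads for a test only through the other lines, so the shares are given as a description. Those lower also included the antisense gene MEF2C-AS1, LINC01366 and the uroplakin gene UPK1B. LINC01366 starts 9.91 kb from LCP2, and UPK1B starts 27.4 kb from IGSF11. Means in this order were 0.869, 0.766 and 1.39 CPM in K562 and 0.0086, 0.0063 and 0.0241 CPM in K/VP.5. These genes, too, had enough reads for a test only through the other lines. The antisense genes CPNE8-AS1 and KCNMA1-AS1 had 10 to 18 and 9 to 21 reads per K562 sample and none in K/VP.5. KCNMA1-AS1 shares 419 exonic bases with KCNMA1, so its few reads may belong to that gene, while CPNE8-AS1 shares none with CPNE8. Those higher included LBX1-AS1, 98.3 kb from TLX1, which had no read in K562 and a mean of 0.769 CPM in K/VP.5, and the kinase gene NEK3, 257 kb from THSD1 (2.07 to 12.01 CPM in the means, log2 fold change 2.5, adjusted p = 6.16e-10 by edgeR's quasi-likelihood test).

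**Figure D3:**
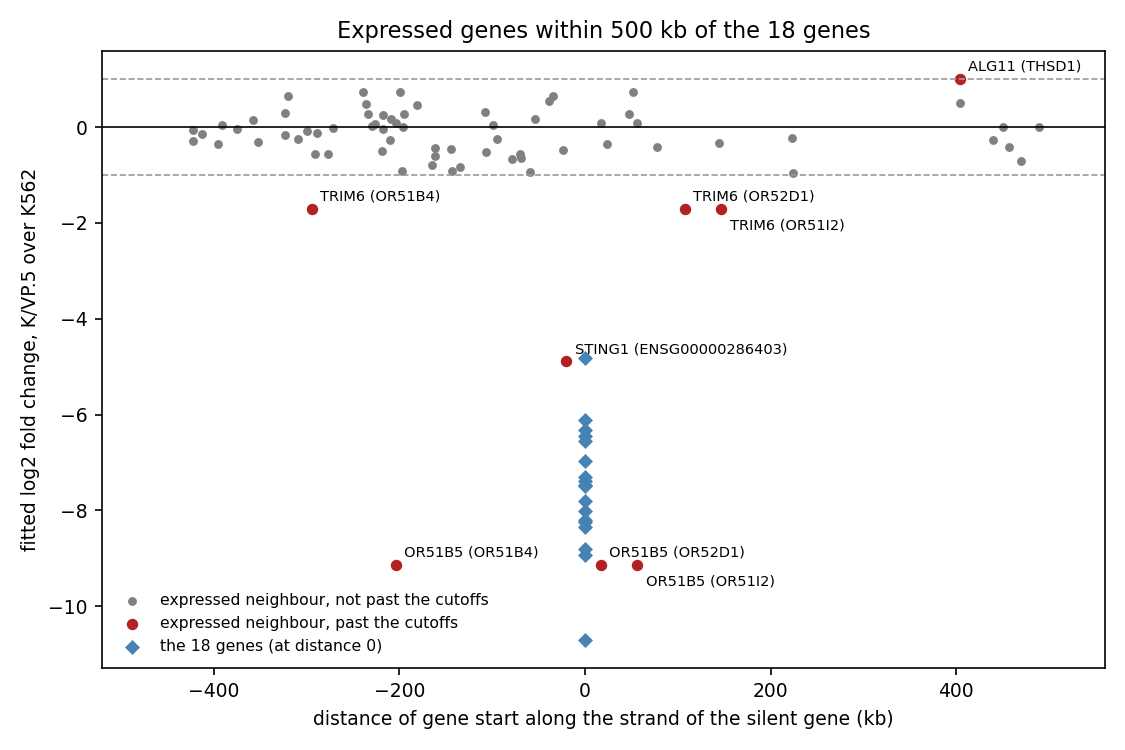
Fitted log2 fold change of K/VP.5 over K562 for the 63 expressed genes that start within 500 kb of one of the 18, against distance in kb along the strand of that gene. Genes near several of the 18 appear once for each, and dashed lines mark a 2-fold change. Most grey points lie between the dashed lines, the red points are OR51B5, TRIM6, STING1 and ALG11, and the 18 genes (blue, at 0) lie between -4.82 and -10.7, which depends on the prior count where K/VP.5 has few reads.

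Smaller shifts of whole regions were also seen. All 10 expressed neighbours of TLX1 and all 5 of PPP1R3C had a log2 fold change below 0 without reaching 2-fold, and the medians of expressed genes within 5 Mb were -0.61 around TLX1 (80 genes) and -0.64 around PPP1R3C (43 genes). The chromosome 10 median was -0.37 and 76.0% of its 405 expressed genes were below 0. Around ZFAND4, on the same chromosome, the median was 0.11, and around THSD1 on chromosome 13 it was 0.50, although THSD1 itself was nearly without reads. The median lay at -0.50 around OR51B4 and at -0.52 around OR51I2 and OR52D1, and between -0.24 and 0.12 around the genes outside these regions that had more than 10 expressed neighbours in that window. PRDM9 had only 2 expressed genes within 5 Mb, too few to describe a region by a median. The lower of the 2 stood at a log2 fold change of -6.33 (K/VP.5 over K562), while the higher stood at 0.08. In K562/SSedit-2 against K562, the same medians ranged from -0.08 to 0.23. DNA copy number was not measured.

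K562/SSedit-2 against K562 was the only contrast that the rule did not use, except that both lines had to reach the floor. All 18 genes were tested, and none passed the cutoffs of 2-fold and 10% false discovery rate (edgeR's quasi-likelihood test, 7 at an unadjusted p under 0.05, and 0 also by DESeq2 and limma voom), against 2.06% of 18626 genes tested. Log2 fold changes ran from -0.37 for ZFAND4 to 0.68 for NCKAP1L, with 11 above and 7 below 0. The median was 0.08, against -0.02 for expressed genes, and the median absolute log2 fold change was 0.27, against 0.12. The expressed genes include genes of far higher count, and the median standard error of the 18 was 0.15. At 10% false discovery rate without a fold limit, 6 of the 18 were higher in K562/SSedit-2 and none was lower, beside 4.86% of all tested genes higher and 7.79% lower.

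NCKAP1L rose from 8.60 ± 1.37 to 13.7 ± 2.13 CPM (SD, n = 4), and its lowest K562/SSedit-2 sample, 11.5 CPM, was above its highest K562 sample, 10.4 CPM (log2 fold change 0.68, standard error 0.142, adjusted p = 0.00705 by edgeR's quasi-likelihood test). OR51I2 rose from 5.11 ± 1.26 to 7.90 ± 1.16 CPM (0.65, standard error 0.168, adjusted p = 0.0260 by the same test). IGSF11 rose from 4.41 ± 0.772 to 6.46 ± 0.655 CPM (0.56, standard error 0.152, adjusted p = 0.0323). For these 3 and for B3GALT1-AS1, which rose from 23.9 ± 1.16 to 29.2 ± 2.29 CPM (log2 fold change 0.31, adjusted p = 0.0359 by edgeR's quasi-likelihood test), the samples of the lines did not overlap. Such a separation in either direction was found for 13.8% of all tested genes.

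KCNMA1 (21.2 ± 3.79 to 27.6 ± 2.23 CPM, adjusted p = 0.0873 by edgeR's quasi-likelihood test) and OR52D1 (5.31 ± 1.78 to 7.60 ± 0.306 CPM, adjusted p = 0.0852) rose with overlapping samples. The call for KCNMA1 was lost in 6 and that for OR52D1 in 5 of the 8 fits that left out 1 sample, with adjusted p of up to 0.226 and 0.230. B3GALT1-AS1 (adjusted p = 0.116, edgeR) and IGSF11 (adjusted p = 0.111, edgeR) lost it only without K562 replicate 2, and NCKAP1L and OR51I2 kept it in all 8. The share of all tested genes that passed with the replicate number as a block was not counted. With this block, 8 of the 18 passed 10% false discovery rate. MEF2C then passed (0.31, adjusted p = 0.0669, against 0.208 without the block, edgeR's quasi-likelihood test), and ZFAND4 was lower (-0.37, adjusted p = 0.0866 against 0.222, same test).

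The remaining 10 of the 18 did not pass in either fit. TLX1 (0.11, standard error 0.104), PRDM9 (0.04, 0.117), ZPLD1 (0.04, 0.263) and THSD1 (-0.01, 0.148) had log2 fold changes near 0. For ENSG00000286403 the estimate was -0.16 with a standard error of 0.270 and a coefficient of variation of 46.0% in K562, where replicate 1 had 13.5 CPM and the others 5.61 to 7.31 CPM. The same sample was the highest of the 4 K562 samples for 12 of the 18 genes (66.7%), against 39.6% of expressed genes. Without it, MEF2C was higher in K562/SSedit-2 (log2 fold change 0.44, adjusted p = 0.0105 by edgeR's quasi-likelihood test). Over the 18 genes the median coefficient of variation was 16.2% in K562 and 10.9% in K562/SSedit-2, against 9.94% and 7.79% of expressed genes, which include genes of far higher count.

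**Figure D4:**
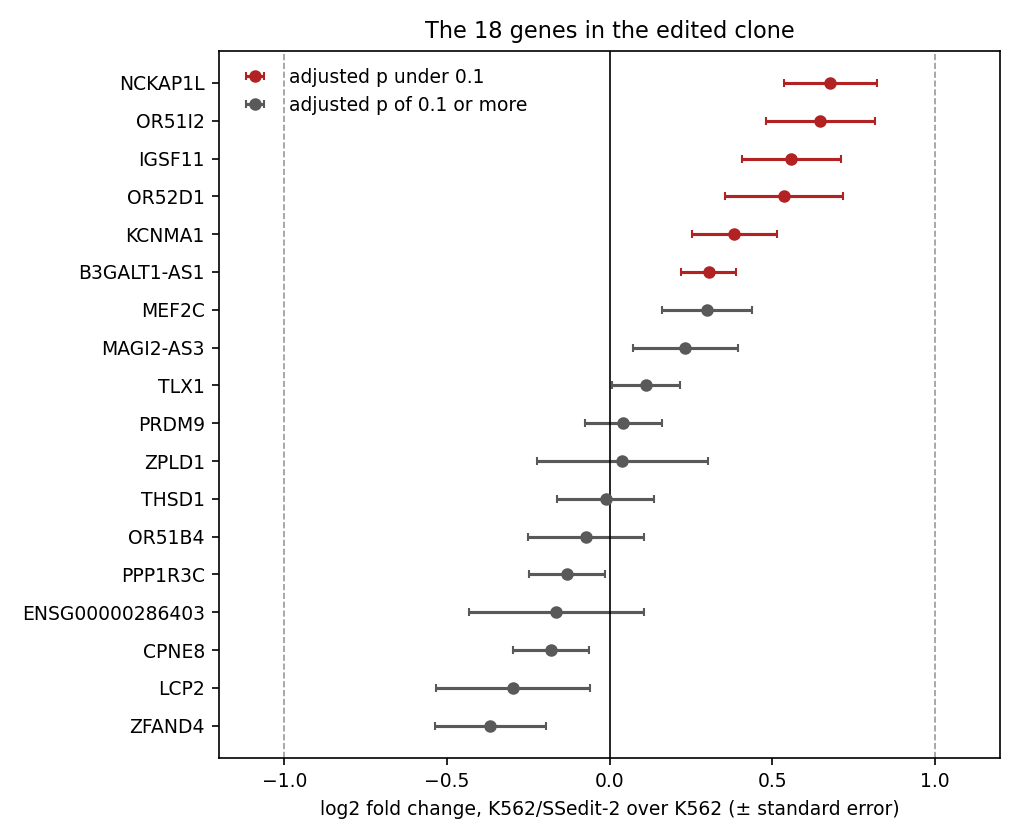
Log2 fold change of K562/SSedit-2 over K562 with its standard error for each of the 18 genes, from the fit of all 12 samples. Dashed lines mark a 2-fold change. The 6 genes with an adjusted p under 0.1 (red) lie at 0.31 to 0.68, and the other 12 lie between -0.37 and 0.30.

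For 12 of the 18 genes a promoter window, the 250 bases before to 50 bases after the RefSeq start, was found in RefSeq (GRCh38.p14). For ZPLD1, PRDM9, MEF2C and THSD1 this window lies away from the GENCODE gene start. The ZPLD1 window begins at 102434765 and the gene at 102099244, and for PRDM9 these are 23507359 and 23443586. Which start these cells use was not measured. The ratio of observed to expected CpG dinucleotides in the first listed window of each gene had a median of 0.720, against 0.858 for 8436 expressed genes and 0.580 for 27305 genes with a window. GC content had a median of 65.7% in both the 12 and the expressed genes. A ratio of at least 0.6, a common mark of CpG islands, was reached by 8 of the 12 (66.7%), 86.9% of expressed genes and 49.0% of all. KCNMA1 (0.982), ZFAND4 (0.865), PPP1R3C (0.823), THSD1 (0.785), TLX1 (0.757), CPNE8 (0.682) and MAGI2-AS3 (0.606) were above it with MEF2C, and IGSF11 (0.583), PRDM9 (0.514), LCP2 (0.275) and ZPLD1 (0) were below. The choice of window moved 2 genes across this value. In the 250 bases before the start MAGI2-AS3 was at 0.524, which left 7 of the 12 (58.3%, against 84.4% of expressed genes), and in the window of highest ratio of each gene IGSF11 was at 0.947, which gave 9 of the 12 (75.0%, against 91.5%). The letters TATAAA, searched on both strands, were in the window of ZPLD1 only (8.33%, against 4.79% of expressed genes), and CCAAT was in 6 windows (50% against 37.6%).

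To show the range of promoter composition among the silent genes, the 250 bases before the start are printed for MEF2C, the gene with the highest CpG ratio (1.19 in the 300-base window), for ZFAND4, the gene without K/VP.5 reads, and for LCP2, a CpG-poor gene that was also nearly silent. All 3 are on the minus strand and are written 5′ to 3′ along the gene, from RefSeq on GRCh38.p14, with every CpG in capitals. They hold 28, 24 and 3 CpG. MEF2C has 7 windows in RefSeq and ZFAND4 has 3, of which the first is given, at chr5:88883185-88883434 and chr10:45672773-45673022, and LCP2 has 1, at chr5:170297778-170298027.
MEF2C: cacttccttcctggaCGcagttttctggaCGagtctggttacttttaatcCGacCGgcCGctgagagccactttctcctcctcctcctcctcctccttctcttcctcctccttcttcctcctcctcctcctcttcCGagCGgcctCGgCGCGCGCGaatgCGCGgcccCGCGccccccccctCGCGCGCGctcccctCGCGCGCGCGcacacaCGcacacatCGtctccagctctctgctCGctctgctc
ZFAND4: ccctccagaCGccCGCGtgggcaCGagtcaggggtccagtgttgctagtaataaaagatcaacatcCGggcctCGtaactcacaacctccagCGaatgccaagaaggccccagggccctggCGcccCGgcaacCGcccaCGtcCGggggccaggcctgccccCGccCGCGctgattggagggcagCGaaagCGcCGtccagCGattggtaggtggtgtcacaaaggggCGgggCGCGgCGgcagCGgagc
LCP2: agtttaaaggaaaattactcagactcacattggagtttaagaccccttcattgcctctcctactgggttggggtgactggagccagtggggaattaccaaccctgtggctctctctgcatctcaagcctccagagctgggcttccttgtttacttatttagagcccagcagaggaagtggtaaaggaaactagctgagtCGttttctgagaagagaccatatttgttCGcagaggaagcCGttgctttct

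**Figure D5:**
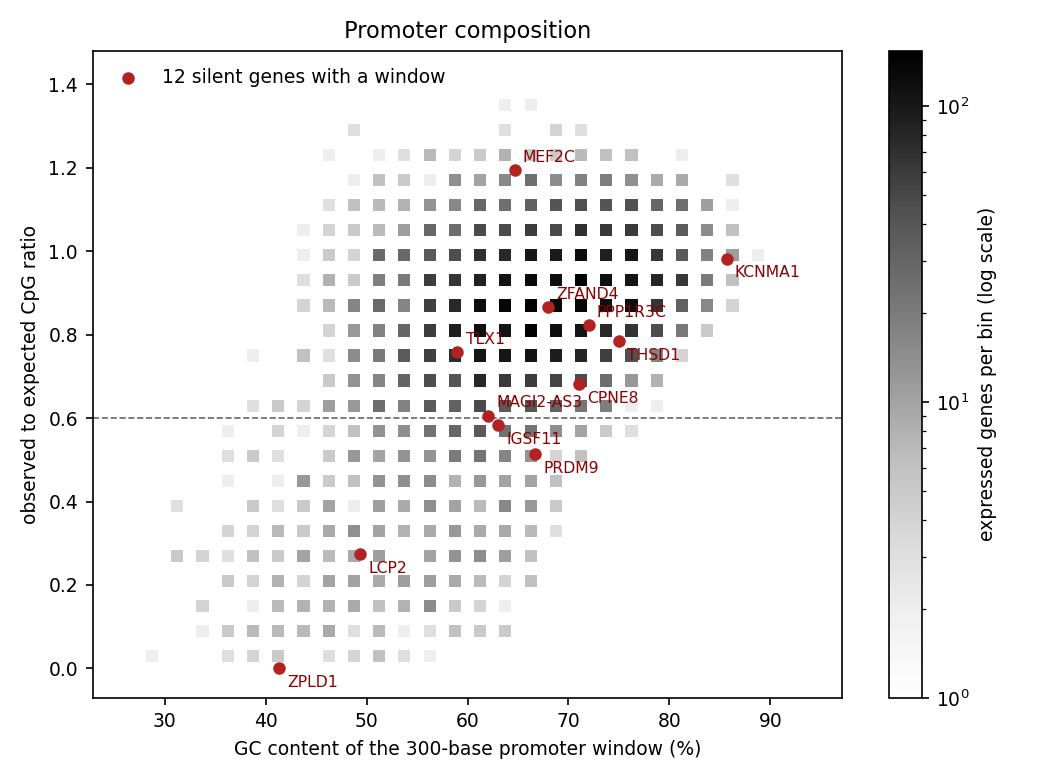
GC content (%) against the observed to expected CpG ratio of the 300-base promoter window, for the 12 silent genes with a window (red) and, as grey bins, for 8436 expressed genes. The dashed line marks a ratio of 0.6. The 12 points range from ZPLD1 (no CpG, 41.3% GC) to MEF2C (ratio 1.19, 64.7% GC) and KCNMA1 (85.7% GC), and 8 lie above the line.

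The enzymes and readers of repressive chromatin were measured from lists of 16 genes of DNA methylation, 36 Polycomb genes and 22 genes of H3K9 methylation and HP1, all 74 of them tested. In K/VP.5 against K562, 2 were higher and 2 were lower past the cutoffs, which 15.6% of all tested genes passed in either direction. DNMT3A, a de novo DNA methyltransferase, rose from 64.6 ± 10.1 to 173 ± 8.51 CPM (log2 fold change 1.39, standard error 0.0899, adjusted p = 2.17e-09 by edgeR's quasi-likelihood test). EHMT1, an H3K9 methyltransferase, rose from 45.0 ± 2.27 to 115 ± 6.28 CPM (1.32, standard error 0.0618, adjusted p = 3.88e-11 by the same test).

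The methyl-CpG reader MBD1 fell from 82.3 ± 7.77 to 36.9 ± 1.95 CPM (log2 fold change -1.19, adjusted p = 5.79e-10 by edgeR's quasi-likelihood test). SUZ12, a core subunit of Polycomb repressive complex 2, fell from 107 ± 8.64 to 53.7 ± 2.98 CPM (-1.03, adjusted p = 3.44e-08 by the same test). None of the 74 passed in K562/SSedit-2 against K562 (edgeR, 18 at an unadjusted p under 0.05), against 2.06% of all tested genes. Whether these changes bear on the 18 genes was not tested.

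Paralogs and partners of the 18, listed once the members were known, numbered 65, of which 40 were at 2 CPM or above in every K562 sample and 37 of these also in every K/VP.5 sample. Of the 65, 49 were tested, and 16 had too few reads. In K/VP.5 against K562, 4 of the 49 were past the cutoffs and higher (8.16%) and 7 were lower (14.3%), beside 8.98% of all tested genes higher and 6.66% lower. For MEF2C, the family member MEF2A was at 5.78 ± 0.936 CPM in K562 and 8.83 ± 0.899 CPM in K/VP.5 and MEF2D at 30.8 ± 3.25 and 16.9 ± 0.687 CPM, both short of 2-fold. HDAC7, a class IIa deacetylase that binds MEF2 proteins, fell from 288 ± 17.7 to 129 ± 6.23 CPM (log2 fold change -1.19, adjusted p = 5.45e-10 by edgeR's quasi-likelihood test).

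For NCKAP1L, none of the 7 tested WAVE complex genes passed, and the broadly expressed NCKAP1 was at 128 ± 27.5 CPM in K562 and 100 ± 8.03 CPM in K/VP.5. Of 6 tested partners of LCP2, VAV1, a guanine nucleotide exchange factor, fell from 11.9 ± 2.57 to 2.43 ± 0.521 CPM (log2 fold change -2.32, adjusted p = 4.40e-07 by edgeR's quasi-likelihood test). KCNMB3, an auxiliary subunit of the KCNMA1 channel, fell from 3.42 ± 0.414 to 1.69 ± 0.240 CPM (-1.05, adjusted p = 2.89e-05 by the same test). Of 11 tested genes of glycogen-targeted phosphatase and glycogen metabolism around PPP1R3C, PPP1R3G and the glycogen synthase gene GYS1 fell, GYS1 from 46.3 ± 5.92 to 21.2 ± 1.42 CPM (-1.16, adjusted p = 1.22e-07).

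Of 8 other copine genes, 5 were tested, of which 3 were past the cutoffs and higher in K/VP.5. CPNE1 (log2 fold change -0.39) and CPNE3 (-0.38) did not reach 2-fold, and CPNE5, CPNE6 and CPNE9 had too few reads. CPNE7 rose from 23.8 ± 4.41 to 84.3 ± 11.1 CPM (log2 fold change 1.80, adjusted p = 1.61e-08 by edgeR's quasi-likelihood test), CPNE4 from 0.0511 ± 0.0427 to 1.48 ± 0.327 CPM (4.76, adjusted p = 2.45e-07) and CPNE2 from 4.57 ± 1.02 to 11.1 ± 0.114 CPM (1.23, adjusted p = 2.17e-05). ZFAND2A, of the same zinc finger family as ZFAND4, rose from 4.25 ± 0.382 to 11.9 ± 0.442 CPM (1.45, adjusted p = 1.72e-07 by edgeR's quasi-likelihood test). The related immunoglobulin superfamily genes of IGSF11, ESAM and VSIR, fell (log2 fold changes -1.27 and -2.40), and CLMP did not pass (0.30). ESAM was also past the cutoffs and lower in K562/SSedit-2 than in K562 (1.05 ± 0.239 to 0.486 ± 0.137 CPM, log2 fold change -1.10, adjusted p = 0.0301 by edgeR's quasi-likelihood test). It was the only one of the 49 tested partners to pass in that comparison, beside 2.06% of all tested genes.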

How the data were processed

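RNA-seq gene counts of 12 samples, 4 for each line, were used. Paired-end reads of 150 bp had been aligned by HISAT2 against GRCh38. The authors deposited one raw count per gene and sample from featureCounts, without normalization. Annotation release, strand setting and handling of multimapping reads are not given in the sources used here. Symbols, types and positions came from GENCODE 44, which holds 60401 of the 60671 IDs.

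CPM was computed with the column total as library size. Counts of 18626 genes passing edgeR's filterByExpr (minimum count 10) were TMM-normalized and tested in one fit of all 12 samples by edgeR's quasi-likelihood method, and p-values were adjusted by Benjamini-Hochberg over every tested gene (R 4.3.3, edgeR 4.0.16, limma 3.58.1, DESeq2 1.42.0, Python 3.11.15). Intervals of ratios are exact binomial limits of the summed counts. The step was tested on simulated counts of K562/SSedit-2 against K562 (18178 genes tested), where 200 of 200 genes changed by 2 on the log2 scale were recovered with 5 false calls.

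Replicate numbers in the labels paired K562 with K562/SSedit-2: deviations of same-numbered samples from the line means correlated at 0.135 to 0.292 in all 4 pairs. For K562 and K/VP.5 this was not so (-0.0027 to 0.269).

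The members and lists were chosen with earlier results of these data known. Named were the members with the highest K562 mean (up to 25, here all 18), those nearest the limits, expressed neighbours lower past the cutoffs and list genes past the cutoffs. Partners, other neighbours and the 5 Mb windows were chosen after their values were seen. Distances are between gene starts in GENCODE 44.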

Additional observations from a re-analysis of the deposited data

Results flagged for a closer look

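In 4 of 53 groups of 4 samples, 1 sample lay far from the other 3 by Dixon's test. The test flags about 1 in 20 groups by chance. That rate does not hold where 3 of 4 samples have no read, since any read in the other sample is then flagged. This was so for LCP2 and OR51I2. LCP2 was at 0.147 CPM in K/VP.5 replicate 3 and had no read in the other K/VP.5 samples. OR51I2 was at 0.0275 CPM, a single read, in K/VP.5 replicate 2 and had none in the others. ZFAND4 was at 5.61 CPM in K562/SSedit-2 replicate 1 and at 3.89 to 3.94 CPM in the other samples of that clone. ZPLD1 was at 6.48 CPM in K562 replicate 1 and at 3.23 to 3.75 CPM in the other K562 samples.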

How the results depend on the processing

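The number of silent genes was 18, and it was 8 with a K/VP.5 limit of 0.1 CPM, 40 with 0.5 CPM, 32 with an expression floor of 1 CPM and 9 with 5 CPM, as looser or stricter limits require. It was 19 with TMM library sizes and 18 to 20 when 1 sample was left out, with all 18 kept each time. At 2-fold and 10% false discovery rate, 384 genes differed for the edited clone and 2914 for K/VP.5, each against the parent, and with a filter of 1 CPM in at least 4 samples, which tests fewer genes, 246 and 1923 did, while 566 and 4332 did without a filter. In all 15 alternatives, 0 of the 18 passed these cutoffs in K562/SSedit-2 against K562. Between 3 and 6 of the 74 chromatin genes passed in K/VP.5, against 4 reported. The median CpG ratio of 0.720 was 0.698 in the 250 bases before the start and 0.785 in the window of highest ratio, the latter chosen after seeing the data. The replicate block changed no call of the 18 other than those of MEF2C and ZFAND4. The count of expressed neighbours lower in K/VP.5 was 3, with 2 within 100 kb, 4 within 1000 kb and 3 to 5 when 1 sample was left out, with 5 without K562 replicate 2 or K562 replicate 3. It was 14 among all tested genes and 2 without OR51B5, both alternatives chosen after seeing the data. Of the 198 alternative estimates for single genes in K562/SSedit-2 against K562, 171 kept direction and call, 13 lost a call at 10% false discovery rate, 4 gained one and 10 changed sign, none of the 10 past the threshold in either fit, and the cause was not tested. These are OR51B4 (-0.18 to 0.22 over the fits without 1 sample), ENSG00000286403 (-0.31 to 0.24), ZPLD1 (-0.13 to 0.35) and THSD1 (-0.063 to 0.073). In K/VP.5, 3 reads in a sample are 0.0751 to 0.103 CPM, so counting error is large for the K/VP.5 levels of the 18 and differences among them were not tested.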
